A study of Rattus norvegicus with 10 samples.

Results

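*Csf1*, the gene of the macrophage growth factor CSF1, was followed in the trigeminal ganglion (TG) together with 9 genes that mark macrophages: its receptor gene *Csf1r*, *Cx3cr1*, *Cd68*, *Cd163*, *Mrc1*, *Aif1*, *Itgam*, *Tyrobp* and *Trem2*. These 10 genes, of 15507 gene symbols matched on the array, were chosen on values of this same comparison, the OUM minus naive difference on these arrays, so their differences are given as a description and carry no test. Every probe whose accession maps to one of them was taken, which gave 12 probes: 2 each for *Csf1r* and *Aif1*, called probe 1 and probe 2 by their mean signal, and 1 for each other gene. All 12 were well above background on all 10 arrays, so the filter on dim probes removed none of them.

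The OUM group was 5 male Wistar rats, 8 weeks old at treatment, taken on day 2 after filter paper with 50% acetic acid had lain for 30 sec in the labial fornix of the lower incisors under anesthesia. The naive group was 5 age-matched male Wistar rats that received anesthesia alone, and the sample labels call the groups Stomatitis and Control. Both whole ganglia of each saline-perfused rat were taken, so a signal sums neurons, glia, meninges, vessels and immune cells, and more cells of a type cannot be told apart from more RNA per cell. One array was run per rat, and the number of arrays limits the precision.

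CSF1 is secreted by many cell types and acts through the receptor tyrosine kinase CSF1R, which macrophages and microglia need for survival and division. After peripheral nerve injury in rodents, sensory neurons are known to make CSF1, and macrophages reside in sensory ganglia close to neurons and satellite glia. The other markers stand for separate aspects of these cells: CX3CR1 is the receptor for the neuronal chemokine fractalkine, CD68 is a lysosomal glycoprotein, CD163 takes up haptoglobin-hemoglobin complexes, MRC1 is the mannose receptor, IBA1 (from *Aif1*) binds actin and calcium, ITGAM is the integrin CD11b, and TYROBP (DAP12) is the adaptor through which the lipid receptor TREM2 signals.

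The ETS-family factor PU.1 (*Spi1*) drives many myeloid genes, and the core GAGGAA is part of many of its sites. Promoter windows of 7 member genes were in the RefSeq table (GRCr8), each running 250 bases before to 50 bases after the start that the table uses. That start is the first base of the gene in the same annotation for *Cd68*, and lies 227 bases inside the gene for *Csf1r* and 96 bases inside it for *Itgam*. For *Cx3cr1* that start lies 1982 bases inside the gene, so its window does not reach the gene's first base. GAGGAA was found on either strand in 5 of these 7 windows (*Csf1r*, *Cd68*, *Itgam*, *Mrc1* and *Trem2*), and in 27.6% of all 33469 windows of the same length. Those of 3 genes are shown because they belong to the CSF1 receptor, the pan-macrophage lysosomal marker and the integrin whose values are set side by side below. They are written 5′ to 3′ on the strand of the gene, with GAGGAA or its complement TTCCTC in capitals: *Csf1r* at chr18:56834129-56834428 (plus strand), *Cd68* at chr10:54882392-54882691 (minus strand) and *Itgam* at chr1:192089342-192089641 (plus strand).
Csf1r: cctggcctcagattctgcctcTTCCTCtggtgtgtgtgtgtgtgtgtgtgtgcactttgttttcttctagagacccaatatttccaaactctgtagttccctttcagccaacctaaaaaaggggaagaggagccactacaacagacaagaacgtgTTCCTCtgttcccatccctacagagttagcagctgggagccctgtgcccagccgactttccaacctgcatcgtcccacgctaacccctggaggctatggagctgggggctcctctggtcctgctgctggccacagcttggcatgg
Cd68: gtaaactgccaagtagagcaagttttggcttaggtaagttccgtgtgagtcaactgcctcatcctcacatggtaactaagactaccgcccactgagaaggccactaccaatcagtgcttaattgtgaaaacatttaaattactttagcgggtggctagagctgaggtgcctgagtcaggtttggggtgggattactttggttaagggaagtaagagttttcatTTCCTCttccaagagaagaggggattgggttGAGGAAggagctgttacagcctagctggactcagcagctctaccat
Itgam: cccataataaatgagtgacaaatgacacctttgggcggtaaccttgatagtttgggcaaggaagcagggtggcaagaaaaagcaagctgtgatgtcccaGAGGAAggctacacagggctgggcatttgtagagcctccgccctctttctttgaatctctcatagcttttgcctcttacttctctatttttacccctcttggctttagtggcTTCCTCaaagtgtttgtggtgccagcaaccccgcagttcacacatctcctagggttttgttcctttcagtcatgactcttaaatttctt
Each of these 3 windows held 2 matches, whose first bases were bases 22 and 156 of the window in *Csf1r*, 224 and 255 in *Cd68*, and 100 and 212 in *Itgam*. A match describes the letters alone, and binding was not measured.

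The 75th percentile of the processed signal, to which every log2 level below is relative, was 2620.3 to 2948.9 units across arrays, and 70.8% to 77.2% of probes were well above background. Slide 1 held OUM arrays 1 to 3 and naive arrays 1, 2, 3 and 5, and slide 2 held OUM arrays 4 and 5 and naive array 4. Neuronal and Schwann cell markers were well above background on all 10 arrays for 7 of 7 and 5 of 5 genes with a probe, as the ganglion label has it. Pituitary hormone genes summed to 19.5 and 26.2 times the 75th percentile in OUM arrays 1 and 2 and to 21.4 in naive array 1, against 0.352 to 5.35 in the other 7 arrays, and each member's difference is also given without these 3 arrays. Of 21969 tested probes, 2 (0.0091%) passed an adjusted p of 0.05 in the limma comparison, and 0 of the 12 member probes did.

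*Csf1* had log2 levels of -1.60, -1.20, -1.26, -1.18 and -1.45 in OUM rats 1 to 5, against -1.73, -1.90, -1.88, -1.75 and -1.64 in naive rats 1 to 5. Each of the 5 OUM values exceeded every naive value, and *Csf1* was the only one of the 12 member probes whose groups did not overlap. The means were -1.34 ± 0.18 in OUM rats and -1.78 ± 0.11 in naive rats (SD, n = 5 each), a log2 difference of 0.44 (SE 0.09), or 1.36-fold. Over all genes 0.783% of tested probes lay higher in OUM rats without overlap and 1.02% lay lower, and since *Csf1* was picked with this contrast known, nothing is read from its place among them. Its adjusted p in limma over all tested probes was not past the threshold.

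The *Csf1* probe was printed 10 times on each array, which lets the error of reading be seen apart from the spread between rats. The SD of the 10 spots was 0.032 to 0.058 on the log2 scale within an array, and the SE of their mean was 0.01 to 0.018. The lowest OUM array (array 1, -1.60) stood 0.037 above the highest naive array (array 5, -1.64), so the gap between the groups at its closest point was about as wide as the spread of single spots on an array. The other OUM arrays were farther off, with their lowest single spot at -1.50 in array 5, against a highest naive spot of -1.57.

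**Figure D1:**
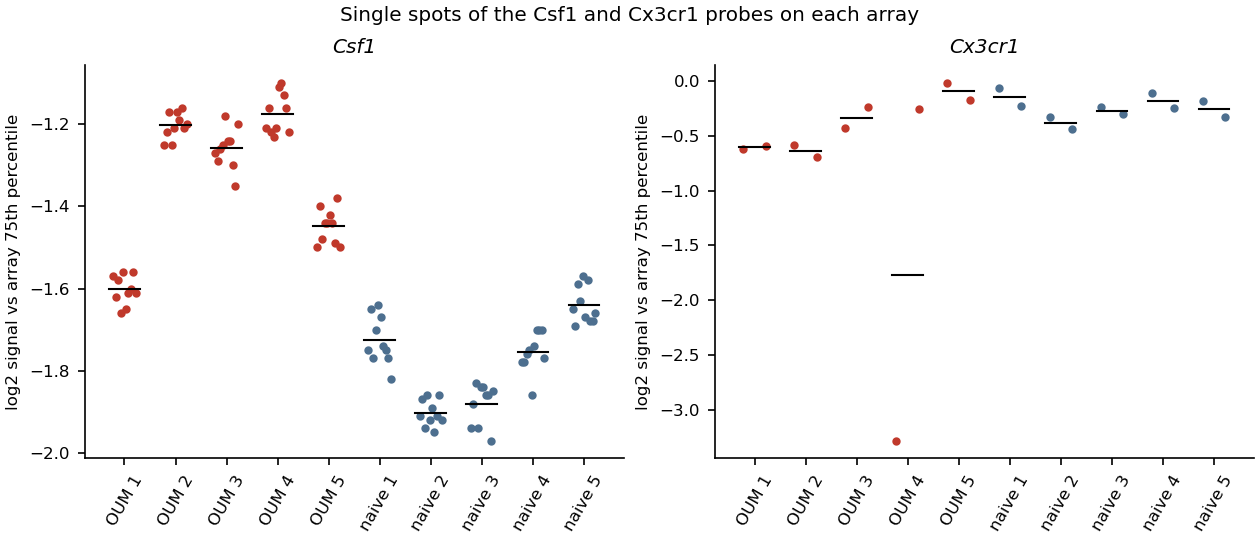
Log2 signal of each single spot of the *Csf1* probe (10 spots per array, left) and the *Cx3cr1* probe (2 spots per array, right), relative to the 75th percentile of the array, for OUM arrays 1 to 5 (red) and naive arrays 1 to 5 (blue); black lines are the mean of the spots. The *Csf1* spots of an array lie close together and OUM array 1 comes nearest to the naive arrays, while in OUM array 4 one *Cx3cr1* spot lies at -3.28 and the other at -0.26.

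The *Csf1* difference changed little with the arrays used, which is a description, since the gene was picked on this contrast. It was 0.43 on slide 1 alone and 0.44 on slide 2 alone, which holds 1 naive array. It was 0.50 without the 3 arrays rich in pituitary hormone genes, and 0.40 to 0.51 when each array was left out in turn. Summed neuronal markers, with 7 of 7 genes detected on all arrays, were 181 to 197 times the 75th percentile in OUM arrays 2 to 5 and 221 in OUM array 1, against 199 to 213 in naive rats. By these sums the 4 OUM arrays highest in *Csf1* lay below every naive array. OUM array 1, the lowest OUM array for *Csf1*, lay above every one. The pattern was less clean in the mean of the log2 levels of these genes, each centred on its mean over the arrays. By that mean OUM array 3 (0.01) lay within the naive range of -0.02 to 0.09. OUM arrays 2, 4 and 5 (-0.12 to -0.1) stayed below that range, and OUM array 1 (0.18) stayed above it. Whether the makeup of the dissected tissue plays a part in the *Csf1* values was not tested.

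The receptor gene *Csf1r* was read by 2 probes, and in both the groups overlapped. Probe 1 had log2 levels of -2.70, -2.12, -2.44, -2.15 and -2.54 in OUM rats 1 to 5, against -2.46, -2.56, -2.60, -2.68 and -2.41 in naive rats 1 to 5. OUM arrays 2 and 4 lay above every naive array, and OUM array 1 lay below every one. The log2 difference was 0.15 (SE 0.11), and it was 0.13 (SE 0.11) for probe 2, whose levels were -3.96 to -3.38 in OUM rats and -3.94 to -3.70 in naive rats. Slide 1 alone gave 0.08 for probe 1 and 0.02 for probe 2, and slide 2 alone gave 0.33 and 0.20. Without the 3 pituitary-rich arrays the differences were 0.18 and 0.20. With each array left out, probe 1 gave 0.08 (without OUM array 2) to 0.22 (without OUM array 1), and probe 2 gave 0.05 (without OUM array 4) to 0.19 (without OUM array 1).

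*Cd68* had log2 levels of -2.18, -1.93, -2.04, -1.82 and -2.08 in OUM rats 1 to 5, against -2.08, -2.27, -2.33, -2.34 and -1.91 in naive rats 1 to 5. The groups overlapped, with 1 OUM array (array 4) above every naive array and naive array 5 above all but that one. The log2 difference was 0.18 (SE 0.097), or 1.13-fold, and it was 0.10 on slide 1 alone and 0.40 on slide 2 alone, where the single naive array was the lowest of all 10. It was 0.24 without the 3 pituitary-rich arrays and 0.13 to 0.25 with each array left out.

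The adaptor gene *Tyrobp* had log2 levels of 0.97, 1.46, 1.33, 1.37 and 1.03 in OUM rats 1 to 5, against 1.37, 1.09, 1.11, 0.91 and 1.29 in naive rats 1 to 5, a difference of 0.08 (SE 0.12). Its levels ran through each other in both groups, with OUM array 2 the highest and naive array 4 the lowest. The difference was 0.04 on slide 1 alone, 0.30 on slide 2 alone, 0.15 without the 3 pituitary-rich arrays, and 0.02 (without naive array 4 or OUM array 2) to 0.14 (without OUM array 1) with each array left out. Its partner *Trem2*, a receptor that binds lipids and apolipoproteins, was read by a single spot per array. It had log2 levels of -1.68, -0.65, -1.24, -1.11 and -0.86 in OUM rats 1 to 5, against -1.42, -1.59, -0.96, -1.58 and -1.30 in naive rats 1 to 5. OUM arrays 2 and 5 were above every naive array and OUM array 1 was below every one, and the difference was 0.26 (SE 0.19), with 0.13 on slide 1 alone and 0.59 on slide 2 alone. It was 0.29 without the 3 pituitary-rich arrays, 0.15 without OUM array 2 and 0.41 without OUM array 1.

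*Cx3cr1* was the member with the lowest difference, and it rested on 1 spot. Its log2 levels were -0.61, -0.63, -0.33, -1.77 and -0.10 in OUM rats 1 to 5, against -0.14, -0.38, -0.27, -0.18 and -0.26 in naive rats 1 to 5, which gave a difference of -0.44 (SE 0.26). The probe was printed 2 times on each array, and in OUM array 4 the spots read -3.28 and -0.26, although the scanner software marked neither as an outlier. Without the low spot the OUM mean was -0.39 ± 0.23 and the naive mean -0.25 ± 0.093 (SD, n = 5 each), a difference of -0.14. With both spots kept, it was -0.17 without OUM array 4, -0.46 without the 3 pituitary-rich arrays, -0.26 on slide 1 alone and -0.75 on slide 2 alone. OUM arrays 1 and 2 then still lay below every naive array on both of their spots, and OUM array 5 lay above every naive mean. *Cx3cl1*, the gene of its ligand fractalkine, differed by 0.02 (SE 0.073).

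*Itgam* had log2 levels of -3.66, -4.80, -3.21, -3.47 and -4.00 in OUM rats 1 to 5, against -3.99, -3.91, -3.89, -4.27 and -4.31 in naive rats 1 to 5. OUM arrays 1, 3 and 4 were above all naive arrays and OUM array 2 was below all of them, so that the SD was 0.62 in OUM rats and 0.20 in naive rats. The difference was 0.25 (SE 0.26). It was 0.14 on slide 1 alone and 0.54 on slide 2 alone, 0.10 without OUM array 3, 0.16 without OUM array 4, 0.49 without OUM array 2 and 0.54 without the 3 pituitary-rich arrays, OUM array 2 among them. *Itgb2*, which encodes the CD18 chain that pairs with CD11b, differed by 0.35 (SE 0.19), with OUM arrays 2, 3 and 4 above all naive arrays and OUM array 1 below all of them. OUM array 2 was thus the lowest for *Itgam* and among the high ones for *Itgb2*.

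The IBA1 gene *Aif1* had log2 levels of 1.09, 1.1, 1.42, 1.36 and 0.96 in OUM rats 1 to 5 by probe 1, against 1.34, 1.14, 1.08, 0.87 and 1.31 in naive rats 1 to 5. The difference was 0.04 (SE 0.11), and by probe 2 it was -0.02 (SE 0.082), with 0.59 to 0.99 in OUM rats and 0.70 to 0.95 in naive rats. Its sign changed with the array left out for both probes, and without the 3 pituitary-rich arrays the differences were 0.15 and 0.04. Slide 1 alone gave -0.01 and -0.03, and slide 2 alone gave 0.29 and 0.09. The scavenger receptor genes of perivascular and border macrophages were read at processed signals of 67.7 to 155 units for *Cd163* and 43.7 to 79.6 units for *Mrc1* across arrays.

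*Cd163* had log2 levels of -4.85, -4.21, -5.34, -4.42 and -4.58 in OUM rats 1 to 5, against -5.08, -5.02, -5.12, -4.39 and -4.82 in naive rats 1 to 5. The arrays of slide 2 were all among the higher ones, in OUM and naive rats alike. The difference was 0.20 (SE 0.21) over the 10 arrays, 0.12 with the slide as a block, 0.21 on slide 1 alone and -0.11 on slide 2 alone. It was 0.06 without the 3 pituitary-rich arrays, and with each array left out it was 0.09 (without OUM array 2) to 0.37 (without OUM array 3). *Mrc1* had log2 levels of -5.59, -5.18, -5.98, -5.33 and -5.50 in OUM rats 1 to 5, against -5.66, -5.27, -5.65, -5.61 and -5.33 in naive rats 1 to 5, a difference of -0.01 (SE 0.15). Its sign changed with the array left out, it was -0.10 on slide 1 alone and 0.20 on slide 2 alone, and it was -0.14 without the 3 pituitary-rich arrays. For both genes OUM array 2 was the highest of the 10 arrays and OUM array 3 the lowest.

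**Figure D2:**
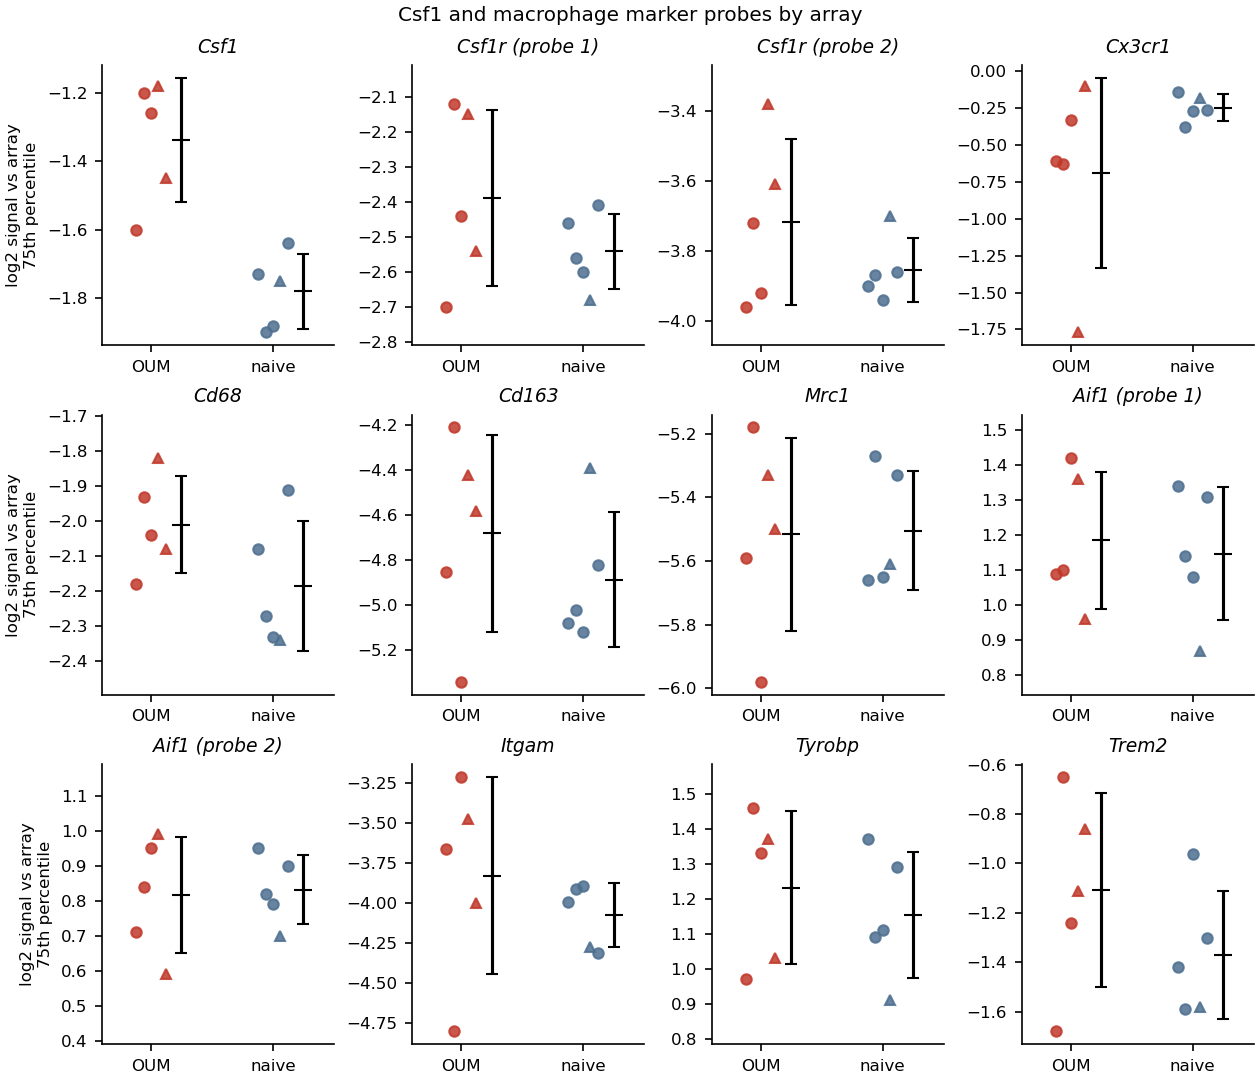
Log2 signal of the 12 member probes relative to the 75th percentile of the array, with OUM rats (red) left of naive rats (blue), 5 arrays each; circles are slide 1, triangles slide 2, and the black bars give mean ± SD, and each panel has its own axis range. *Csf1* is the panel in which all OUM points lie above all naive points, and OUM array 4 of *Cx3cr1* stands at -1.77.

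Of the 12 member probes, 9 had a higher mean in OUM rats and 3 a lower mean, and their median log2 difference was 0.14, beside -0.011 over all tested probes. Without *Csf1* the other 11 had a median of 0.133 and ran from -0.44 to 0.26. The median over the 12 was 0.061 on slide 1 alone and 0.293 on slide 2 alone. OUM rats also varied more: the SD was larger in OUM than in naive rats for 11 of the 12 probes, with a median ratio of 1.63, beside 62.9% of all tested probes and a median ratio of 1.2. *Cd68* was the 1 probe with a smaller SD in OUM rats, with SDs of 0.14 in OUM rats and 0.19 in naive rats.

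**Figure D3:**
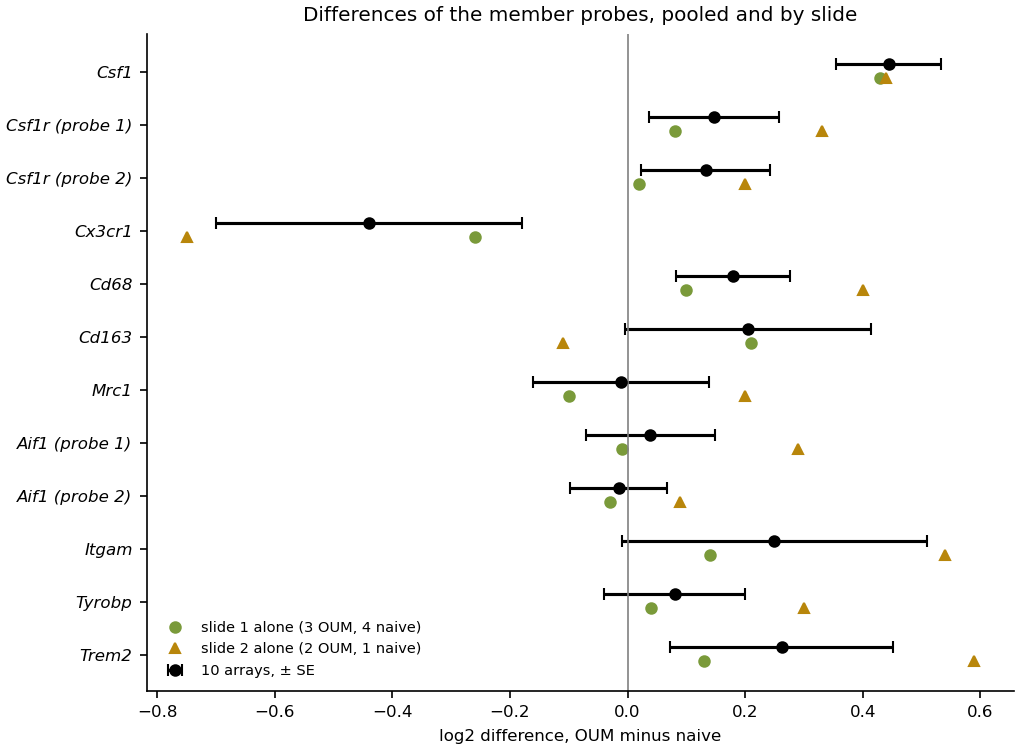
Log2 difference, OUM minus naive, of each member probe over all 10 arrays (black, ± SE) and on slide 1 alone (green circles, 3 OUM and 4 naive arrays) and slide 2 alone (gold triangles, 2 OUM arrays and 1 naive array). The slides give 0.43 and 0.44 for *Csf1*, and for *Trem2* they give 0.13 and 0.59.

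The ligand and its receptor were then set against each other across arrays, a relation within the groups that the contrast does not use. With the group means removed, *Csf1* and *Csf1r* probe 1 moved together over the 10 arrays, with a Pearson r of 0.85 (p = 0.0106, exact two-sided permutation test within groups, 14400 orders) and a Spearman rho of 0.81 (p = 0.023, same exact test). Adjusted over the 2 *Csf1r* probes these exact p-values were 0.0211 and 0.046. OUM arrays 2 and 4 were high in both genes and OUM array 1 was low in both. Without the 2 arrays farthest from the *Csf1* median (OUM array 1 and naive array 2) r was 0.79 (p = 0.0226, exact permutation test), and over the 7 arrays of slide 1 it was 0.88 (p = 0.0417, exact permutation test). The relation was weaker and not past the threshold with *Csf1r* probe 2, which gave r = 0.46 (p = 0.305 raw and adjusted, exact permutation test). Nor was it past the threshold over the 7 arrays left without the 3 rich in pituitary hormone genes, which gave r = 0.71 (p = 0.139, exact permutation test over 144 orders). The 2 *Csf1r* probes had an r of 0.46 with each other, against 0.93 for the 2 *Aif1* probes. *Csf1r* probe 2 was read by a single spot per array at processed signals of 175 to 282 units. *Csf1r* probe 1 was read by 2 spots at 421 to 664 units.

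**Figure D4:**
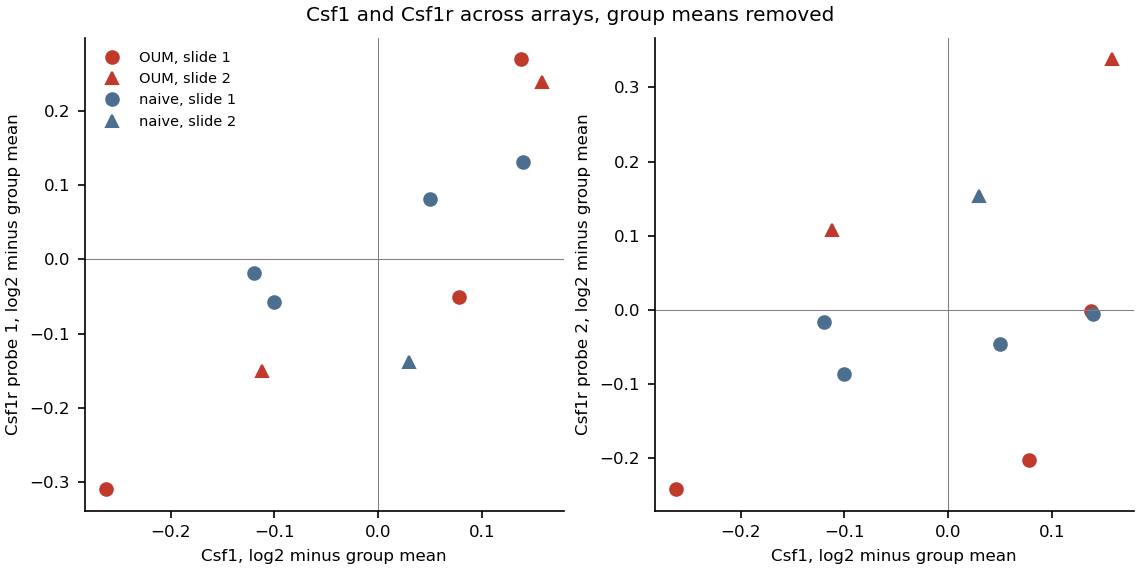
*Csf1* (horizontal) against *Csf1r* probe 1 (left) and probe 2 (right), each as log2 signal minus the mean of its group, for OUM arrays (red) and naive arrays (blue), with circles for slide 1 and triangles for slide 2. The points of probe 1 run along a line (r = 0.85), and those of probe 2 are more scattered (r = 0.46).

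Other pairs of members are given as a description, over the same 10 arrays and with the group means removed. The 45 pairs of the 10 genes had a Pearson r from -0.74 to 0.89, with a median of 0.20. *Tyrobp* followed *Csf1r* (0.89), *Cd68* (0.80) and *Csf1* (0.78), and *Cd68* followed *Csf1r* (0.82) and *Csf1* (0.79). *Cd163* followed *Mrc1* (0.68) and ran against *Itgam* (-0.74), and *Mrc1* also ran against *Itgam* (-0.64). All pairs share the arrays, the RNA and the scaling of each rat.

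High values of r with *Csf1* were not limited to macrophage genes. Of 14297 other tested probes with a symbol, 1.14% had an r with *Csf1* at least as high as *Csf1r* probe 1, and the median was -0.07. The 5 genes most like *Csf1* were *Cryaa* (r = 0.976), a lens crystallin gene, *Rgma* (0.975), the gene of a repulsive guidance molecule, *Ctss* (0.974), the cathepsin S gene of myeloid cells, *Tifab* (0.969) and the homeobox gene *Irx1* (0.961). *Ctss* had log2 levels of 0.22, 0.94, 0.79, 1.02 and 0.64 in OUM rats 1 to 5, against 0.43, 0.08, 0.25, 0.45 and 0.61 in naive rats 1 to 5. Its OUM array 1 was thus low like that of *Csf1*, and 4 of its 5 OUM arrays lay above all naive arrays.

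The probes of 8 lists of genes related to the members in function were counted in the same fit, and none of their probes passed an adjusted p of 0.05. Over all tested probes, 3.89% were higher in OUM rats and 4.98% lower when the p without adjustment was under 0.05, which is the background for the counts that follow. Among other colony-stimulating factors and receptors, 1 of 4 probes was higher at that level: *Il34*, the second ligand of CSF1R, had 2.42, 2.49, 2.4, 2.45 and 2.47 in OUM rats 1 to 5, against 2.39, 2.20, 2.24, 2.24 and 2.41 in naive rats 1 to 5. In 4 OUM arrays it lay above its highest naive level, and the log2 difference was 0.15 (SE 0.052). *Csf3*, the granulocyte factor, differed by 0.22 (SE 0.16), and *Csf2* was not well above background on enough arrays to be tested.

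The list of resident macrophage and microglia genes had 33 probes of 27 genes, of which 7 were higher and 0 lower at that unadjusted level, with a median log2 difference of 0.076. *Fcgr3a*, an Fc receptor gene, differed by 0.51 (SE 0.17, limma adjusted p = 0.49), with OUM arrays 2, 3 and 4 above all naive arrays. The complement genes *C1qa* and *C1qc*, made by tissue macrophages, differed by 0.31 (SE 0.11) and 0.23 (SE 0.089). The others of the 7 were *Ctss* (0.36), the inhibitory Fc receptor gene *Fcgr2b* (0.33 by probe 1, with -0.24 by probe 2), *Laptm5* (0.22), and the Fc receptor gamma chain gene *Fcer1g* (0.23 by probe 1). The counts rested on single arrays: they were 1 higher and 2 lower without OUM array 2, 1 higher and 0 lower without OUM array 4, and 11 higher and 0 lower without OUM array 1. Without naive array 1, 3 or 5 or OUM array 3 they were 3 to 4 higher and 0 lower, without naive array 4 they were 4 higher and 1 lower, and without naive array 2 they were 2 higher and 0 lower. Leaving out OUM array 5 gave 5 higher and 0 lower, and leaving out the 3 pituitary-rich arrays gave 7 higher and 1 lower. On slide 1 alone 3 probes were higher, beside 983 of 21969 over all tested probes. By the methods' t-test 2 were higher, beside 717 of 21969. With each array left out, 602 to 1234 of the 21969 probes were higher and 745 to 1530 lower.

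Among myeloid transcription factors 2 of 8 probes were higher at an unadjusted p under 0.05. *Klf4* had log2 levels of -2.63, -2.32, -2.31, -2.29 and -2.18 in OUM rats 1 to 5, against -2.75, -2.67, -2.65, -2.46 and -2.72 in naive rats 1 to 5, a difference of 0.31 (SE 0.086). *Cebpb* differed by 0.18 (SE 0.066), and *Spi1*, the gene of PU.1, by 0.15 (SE 0.29). *Spi1* was well above background on 5 OUM arrays but only 4 naive arrays, so it was tested only through its OUM arrays. Its naive array 4 stood at -7.19, against -6.05 to -5.43 in the other naive arrays. KLF4 and C/EBPβ are also made outside the myeloid lineage, and *Irf8*, more confined to it, was well above background on 2 OUM and 2 naive arrays and was not tested.

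Among monocyte and recruitment genes 2 of 15 probes were higher at that level and 0 lower. One of the 2, *Ly6c*, was well above background on 5 OUM arrays but only 3 naive arrays, so it was tested only through its OUM arrays and its place in the count supports nothing. *Ccl2*, the main ligand that draws monocytes, had log2 levels of -0.02, -0.16, 0.05, 0.14 and 0.35 in OUM rats 1 to 5, against -0.06, -0.15, -0.08, -0.07 and -0.01 in naive rats 1 to 5, a difference of 0.15 (SE 0.083). OUM arrays 3, 4 and 5 were above all naive arrays and OUM array 2 was below them. Its receptor gene *Ccr2*, a mark of monocytes from blood, was well above background on 0 OUM arrays and 1 naive array, so no level of it could be compared.

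Among genes linked to TREM2, lipid handling and phagocytosis 2 of 17 probes were higher and 1 lower at the same level, and the median was -0.008. *Gpnmb*, a lysosomal glycoprotein gene, had log2 levels of -1.65, -1.70, -1.93, -1.88 and -1.69 in OUM rats 1 to 5, against -2.27, -2.0, -2.14, -1.99 and -1.94 in naive rats 1 to 5. It differed by 0.30 (SE 0.08) and its groups did not overlap, the only case among the 106 tested probes of the companion lists. Over all tested probes 0.783% lay higher in OUM rats without overlap, so nothing is read from this case. *Lgals3*, the galectin-3 gene that small sensory neurons also express, differed by -0.13 (SE 0.057), and *Abca1*, a cholesterol exporter gene, by 0.10 (SE 0.043).

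Among perivascular and border macrophage genes 0 of 11 probes were higher and 1 was lower at an unadjusted p under 0.05. This was *Msr1*, a scavenger receptor gene, which differed by -0.37 (SE 0.15), and *Lyve1* differed by 0.19 (SE 0.13). Of ligands and partners of the members 0 of 9 probes reached that level, among them *Itgb2*, *Cx3cl1*, *Adam17* at -0.14 (SE 0.071) and *Syk*, the kinase downstream of TYROBP, at 0.14 (SE 0.15) by one probe and -0.11 (SE 0.19) by another. Of 10 probes of proliferation genes 0 reached it: the 3 probes of *Mki67*, the Ki-67 gene, differed by -0.18 (SE 0.12), -0.18 (SE 0.11) and -0.21 (SE 0.16), and the 2 probes of *Mcm2*, a helicase subunit gene, by 0.05 and 0.15.

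**Figure D5:**
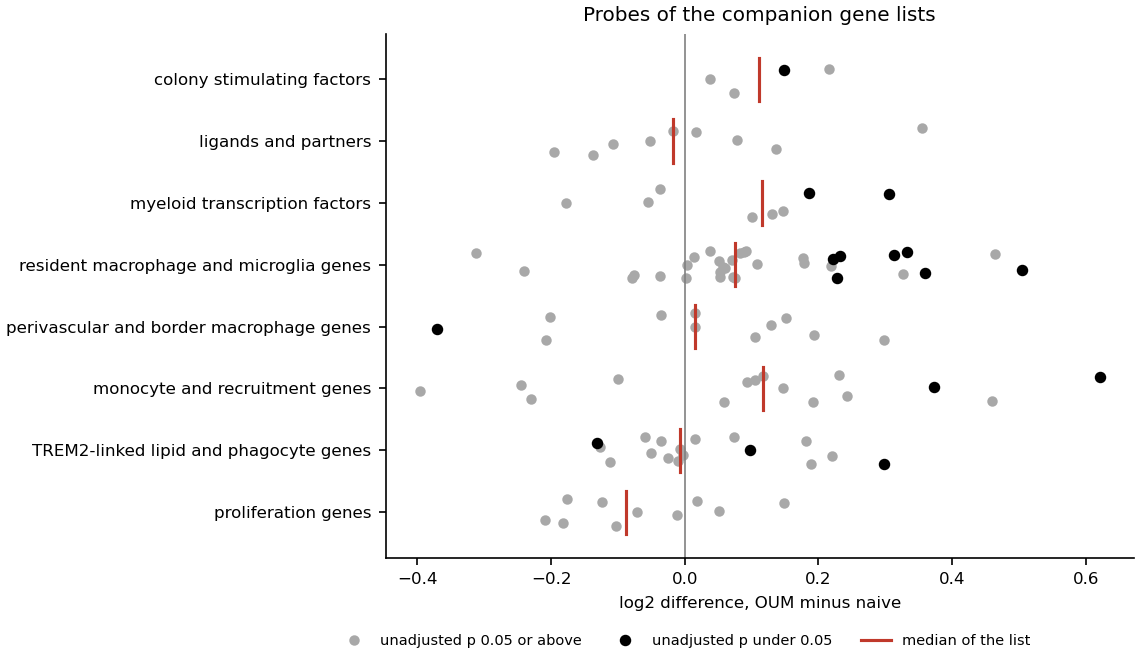
Log2 difference, OUM minus naive, of every tested probe in the 8 companion gene lists (rows); black points have an unadjusted limma p under 0.05, grey points do not, and red bars are list medians. The 7 black points of the resident macrophage and microglia list all lie above 0, between 0.22 and 0.51.

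Markers of other cells were read beside these counts. The summed level of the 9 macrophage markers was 5.56 to 6.98 times the 75th percentile in OUM rats and 5.39 to 6.91 in naive rats. This sum weighs most on *Aif1* and *Tyrobp*, the brightest of the 9. By the mean of the centred log2 levels OUM arrays 1 to 5 stood at -0.12, 0.13, 0.04, 0.09 and 0.05, against 0.0, -0.07, -0.05, -0.13 and 0.05 in naive arrays 1 to 5. Both values of OUM array 4 (sum 6.57) include its *Cx3cr1* level of -1.77, which the low spot pulled down. Summed endothelial markers were 2.51 to 3.06 in OUM rats and 2.36 to 2.49 in naive rats. All 5 of 5 genes were well above background on all arrays. The lowest OUM sum exceeded the highest naive sum, but the groups overlapped in the mean of the centred log2 levels of these genes. By that mean OUM array 1 stood at -0.13, below every naive array (-0.09 to -0.01). The other OUM arrays stood at 0.01 to 0.19. Summed satellite glia markers were 23.0, 33.9, 32.1, 34.4 and 26.3 in OUM rats 1 to 5, against 28.8, 21.4, 25.8, 25.1 and 29.4 in naive rats 1 to 5. In OUM rats these sums had the same order of arrays as *Csf1*, and in naive rats array 2 was lowest and array 5 highest for both. By the mean of the centred log2 levels the order was less alike, with OUM array 3 (0.19) above OUM array 2 (0.05) and naive array 1 (0.09) above naive array 5 (0.04). For neutrophils 4 of 7 genes with a probe were well above background on all arrays and *Cxcr2* on none, with sums of 0.441 to 3.48 in OUM rats and 0.497 to 6.39 in naive rats. For lymphocytes 4 of 8 genes were, and *Cd3e* on none, with sums of 0.262 to 0.373 in OUM rats and 0.296 to 0.361 in naive rats. The part of these cells in the values of the member genes was not tested.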

How the data were processed

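TG RNA of 5 OUM rats and 5 naive rats was hybridised to 1-colour Agilent rat arrays, with 1 array per rat. The authors digitized the images with Agilent Feature Extraction 10.7.1.1, and the deposited intensity is its processed signal, after background subtraction. The authors normalized it in GeneSpring, and their deposited value table was found to hold a ratio of processed signal to 1 constant per array, with column medians of 0.115 to 0.123. It was used as an alternative.

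Control spots and spots marked as non-uniform or population outliers were left out (267 to 334 of 58717 per array), and log2 of the deposited intensity was expressed against the 75th percentile of all gene spots on that array. Spots of a probe were averaged, and probes of a gene were kept apart. Accessions were matched to symbols with the GRCr8 gene set of RefSeq, which named 18438 of 30367 probes; the array annotation uses another build. Testing required a probe to be well above background throughout at least 1 group, which 21969 probes were. Groups were compared with limma 3.58.1 (lmFit, eBayes, two-sided) in R 4.3.3 (statmod 1.5.0 and version 1.17.8 of data.table), with Benjamini-Hochberg adjustment over all tested probes at 0.05, and the script was tested on simulated data. Tables and figures used Python 3.11.15, numpy 2.4.6, pandas 2.3.3 and matplotlib 3.10.9.

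The members, lists and tests were chosen with earlier results of these data known. Named genes were all members, the 2 genes of each list with the lowest p, some fixed ligands, receptors and factors, and the 5 genes most like *Csf1*; list members at an unadjusted p under 0.05 were added after their values were seen, and 1 gene is not reported here. Alternatives were normexp (offset 50, on the median spot signal, since the mean spot signal named beforehand is not used here), quantile and array median scaling, other filters, 1 probe per gene, outlier spots kept, the slide and the replicate number as blocks, each slide alone, an intensity trend with a robust prior, the methods' t-test, the authors' table and each array left out.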

Additional observations from a re-analysis of the deposited data

Results flagged for a closer look

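In 88 groups of 5 arrays, of member probes and of named genes, an array was marked when its gap to the nearest other exceeded 0.71 of the range of the group, which chance gives in about 1 of 20 groups. The marked arrays numbered 8, 1 in OUM and 7 in naive rats, and none was a member probe. *Spi1* had -5.41 in OUM array 4, against -6.20 to -6.00 in the other OUM arrays. In naive rats array 4 stood apart for *Adam17* (-2.79, others -2.55 to -2.47) and *Lyve1* (-2.44, others -3.06 to -2.89). Naive array 1 stood apart for *C1qc* (-1.75, others -1.53 to -1.44) and *Laptm5* (1.72, others 1.29 to 1.40). Naive array 2 stood apart for *Fcgr2b* probe 1 (-3.90, others -3.55 to -3.42) and *Abca1* (-2.21, others -2.14 to -2.12), and naive array 5 for *Fcer1g* probe 2 (-0.74, others -0.94 to -0.88).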

How the results depend on the processing

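Under all 25 alternatives 0 member probes and 0 probes of the companion lists passed the threshold. The count over all probes was 2. It was 0 with quantile normalization, no filter on dim probes, the replicate block, the methods' t-test (717 higher and 1088 lower before adjustment) and the authors' table, and 0 without the 3 arrays rich in pituitary hormone genes, an alternative chosen after seeing the data. It was 1 with an intensity trend and robust prior, 4 each with array median scaling, the slide as a block and slide 1 alone, 153 on slide 2 alone, and 0 to 1 with each array left out. The replicate number as a block changed no other call, and same-numbered arrays had correlations of -0.086 to 0.315, none the best partner of its own number. Arrays numbered 1, 2 and 3 were on slide 1 in both groups, and both arrays numbered 4, with the correlation of 0.315, were on slide 2. Whether same-numbered rats were handled together cannot be told from these values. The median difference of the members (0.14) was 0.293 on slide 2 alone, and with each array left out it was 0.068 to 0.201. The *Csf1* difference was 0.403 to 0.51 over 23 alternatives. The difference changed sign in 6 alternatives for *Mrc1*, in 4 for *Aif1* probe 1, in 8 for *Aif1* probe 2 and in 1 (slide 2 alone) for *Cd163*. The *Csf1* and *Csf1r* correlation was 0.46 with *Csf1r* probe 2 and 0.71 without the 3 pituitary-rich arrays, neither past the threshold, and 0.73 to 0.91 with each array left out. By spot, *Cx3cr1* differed by -0.80 on spot 1 and by -0.08 on spot 2. Probes of the companion lists at an unadjusted p under 0.05 numbered 14 higher and 2 lower, with 8 higher and 1 lower by the methods' t-test and 7 higher and 8 lower on slide 1 alone. The causes were not tested. With 5 arrays a group, small differences of dim probes could not be resolved.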
